A study of Mus musculus with 6 samples.

Results

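The EGF family ligands and ERBB receptors were followed in RNA sequencing data from mouse submandibular glands (SMGs). The members were 7 ligand genes (Egf, Tgfa, Areg, Ereg, Hbegf, Btc and Nrg1) and 3 receptor genes (Egfr, Erbb2 and Erbb3), taken by name from the unfiltered table of raw counts. All 10 were present among its 43280 rows. The series held 6 libraries from SMGs of female mice, 3 labelled wildtype (WT) and 3 labelled as double knockouts (DKO) of Hs3st3a1 and Hs3st3b1, with the library numbers 1, 4 and 5 in each group. The paper describes adult DKO glands. In the DKO mice a zinc finger nuclease made a frameshift deletion in the first exon of Hs3st3a1. This deletion lies on the same allele as a LacZ cassette in Hs3st3b1. The paper states a C57BL/6 background for the single knockouts of both genes, but not for the DKO mice. Several founder lines were kept. The founder of the sequenced animals, their exact age and whether each library was a single animal were not given in the sources used here, so p-values measured only the spread between these libraries.

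EGF family ligands are made as membrane-anchored precursors, and proteases of the ADAM family cut many of them from the cell surface. The released ligands bind ERBB receptor tyrosine kinases, which pair with each other and relay the signal mainly through the RAS-ERK and PI3K-AKT routes. Heparan sulfate, the sugar chain that the enzymes encoded by Hs3st3a1 and Hs3st3b1 modify, binds some of these ligands, among them HB-EGF and amphiregulin. In rodents the granular ducts of the SMG store EGF together with kallikreins and release it into saliva. NRG1 signals through ERBB3 and ERBB4, and ERBB3 has little kinase activity of its own and acts in a pair with ERBB2.

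The ligands share an EGF-like domain, in which 6 cysteines form disulfide bonds, and this stretch is what makes these genes a family. The GENCODE M21 coding sequences (GRCm38) were searched on the coding strand and in frame for 6 cysteine codons separated by 7, then 4 to 5, then 10 to 13, then 1 and then 8 other codons. Each of the 7 member ligands held exactly 1 match, and the 3 receptors held 0. The pattern was found in 57 of 21782 coding genes (0.262%). The matches of 6 ligands are shown 5′ to 3′ on the coding strand to let the spacing be compared, with the cysteine codons in capitals.
Egf: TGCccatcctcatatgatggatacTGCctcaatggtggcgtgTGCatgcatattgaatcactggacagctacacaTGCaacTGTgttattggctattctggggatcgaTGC
Tgfa: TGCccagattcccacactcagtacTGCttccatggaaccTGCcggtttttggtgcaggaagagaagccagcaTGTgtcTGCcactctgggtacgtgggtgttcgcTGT
Areg: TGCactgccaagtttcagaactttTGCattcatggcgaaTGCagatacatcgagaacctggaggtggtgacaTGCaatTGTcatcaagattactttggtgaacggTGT
Ereg: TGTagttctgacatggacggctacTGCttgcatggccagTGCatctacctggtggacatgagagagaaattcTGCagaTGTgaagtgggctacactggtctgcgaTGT
Btc: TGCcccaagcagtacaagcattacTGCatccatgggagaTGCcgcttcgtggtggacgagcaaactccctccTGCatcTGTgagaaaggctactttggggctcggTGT
Nrg1: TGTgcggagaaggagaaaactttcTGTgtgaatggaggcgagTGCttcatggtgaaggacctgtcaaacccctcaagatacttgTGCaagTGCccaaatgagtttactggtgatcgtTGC

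Tgfa, Areg, Ereg and Btc shared 1 spacing, with 4 codons in the second gap and 10 in the next, and their stretches were each 108 bases long. Over these 108 bases, Tgfa and Btc had the most bases in common of the 6 pairs (62.0%) and Tgfa and Ereg the fewest (45.4%). Egf had 5 codons at the second gap and a stretch of 111 bases, and Nrg1 had 5 codons at the second gap, 13 in the next and 120 bases. In Egf the match lay toward the end of the coding sequence, at codons 982 to 1018 of 1217, across exons 20 and 21 of the transcript. In Tgfa, Areg, Ereg and Btc it lay across exons 3 and 4.

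The members were spread over the genome, with 1 group of neighbours. Egf lies on the minus strand at chr3:129677565-129755316, Tgfa on the plus strand at chr6:86195223-86275719 and Nrg1 on the minus strand at chr8:31814551-32884029, and Hbegf lies on chromosome 18. Ereg (chr5:91074622-91093646), Areg (chr5:91139599-91148432) and Btc (chr5:91357261-91402994) lie near each other and near the related ligand gene Epgn, within 376 kb. Erbb3 is on the minus strand at chr10:128567523-128589652. Egfr (chr11:16752203-16918158) and Erbb2 (chr11:98412470-98437716) are on the plus strand of the chromosome that also carries the targeted genes, 47.0 Mb before Hs3st3b1 and 33.9 Mb after Hs3st3a1. All coordinates are GRCm38 positions of the whole gene in the GENCODE M21 annotation.

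Total counts ranged from 23674258 to 29611975 per library. Counts were divided by DESeq2 size factors (0.867 to 1.12) and are called normalized counts. Acinar and granular duct markers of the SMG were found in every library, with 10 of 10 and 16 of 16 genes of those lists tested. The targeted genes did not separate the groups. Hs3st3b1 ranged from 171 to 234 normalized counts in WT and from 125 to 242 in DKO, and Hs3st3a1 from 10.8 to 14.8 and from 8.36 to 15.0. Whether either alteration changes a count per gene was not tested, so these values do not check the labels. By quantitative PCR, however, the paper reported no expression of either gene in adult DKO glands of both sexes, unlike the counts here. The source of this difference was not tested. WT and DKO here always stand for libraries so labelled, and all directions rest on that.

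Levels of different genes were compared per length, as normalized counts per kb of merged exon. Egf stood far above every other member, with a mean over the 6 libraries of 4654 normalized counts per kb, 8.47 times the level of Erbb3 (550) and 156 times that of Tgfa (29.9), the next ligand. These ratios depend on the length taken for Egf. Its merged exons span 11.3 kb while its longest transcript spans 4.76 kb, and with longest transcripts the ratios were 20.1 and 257. By merged exons, Erbb2 (210) and Egfr (106) followed Erbb3, and Tgfa was followed by Btc (13.4) and Hbegf (8.63). Nrg1 (0.907), Ereg (0.617) and Areg (0.123) were close to absent.

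The ranges of Egf, Erbb3, Erbb2, Egfr and Tgfa over the 6 libraries did not overlap with each other. The ranges of Btc (10.3 to 14.9 normalized counts per kb) and Hbegf (7.16 to 11.0) overlapped, as did those of Nrg1, Ereg and Areg, so no order is given within these sets. Of the family genes outside the members, the receptor Erbb4 lay between Egfr and Tgfa at 59.4, the neuregulin genes Nrg2 and Nrg4 lay at 19.5 and 4.66, and Epgn and Nrg3 at 0.735 and 0.126. The order by mean was the same with longest transcripts.

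**Figure D1:**
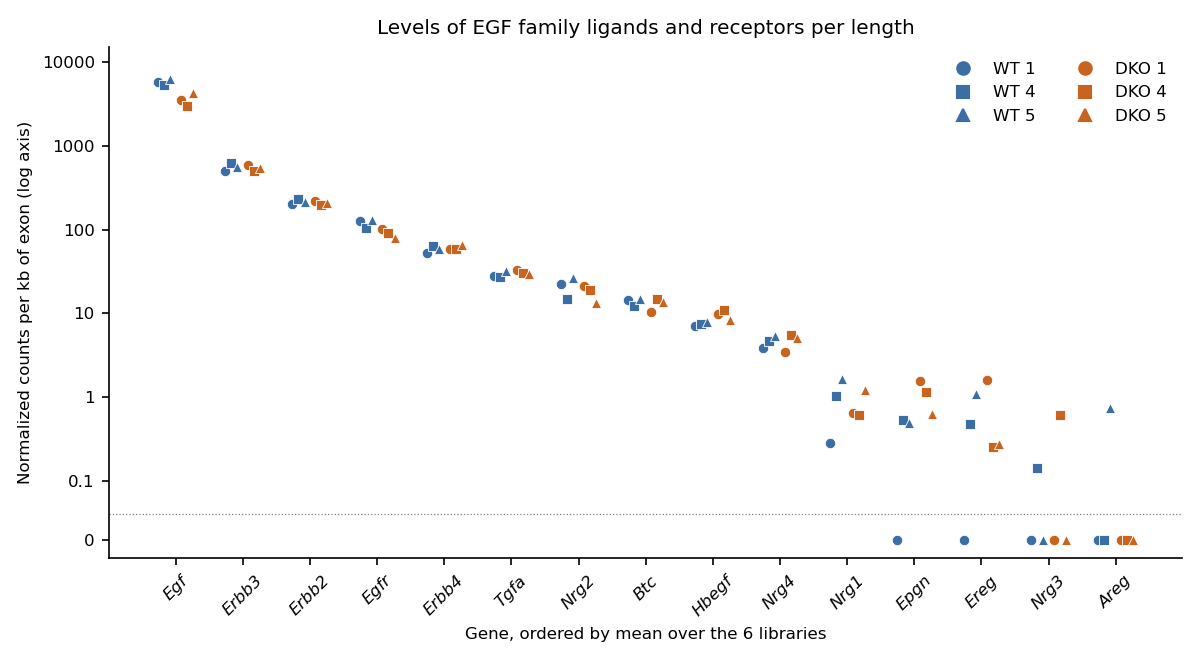
Normalized counts per kb of merged exon (log axis, with counts of 0 drawn below the dotted line) for the 10 members and 5 other family genes, ordered by their mean; each point is 1 library, blue for WT and orange for DKO. Egf lies between 3004 and 6212 in all 6 libraries, and the 4 receptor genes lie above every ligand gene but Egf.

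Egf, the ligand that granular ducts store, was lower in DKO. It had 64665, 59917 and 70042 normalized counts in WT 1, 4 and 5, against 38965, 33869 and 47401 in DKO 1, 4 and 5. Every DKO library was below every WT library. The means were 64875 ± 5065 and 40079 ± 6834 (SD, n = 3). The fold change of DKO over WT was 0.618 with a 95% interval of 0.520 to 0.734 (-0.69 ± 0.13 SE on the log2 scale), and Egf passed the test with a DESeq2 adjusted p of 1.60e-05. Among the 18606 rows tested, Egf ranked 20 by mean normalized count. As a share of all counts it took 0.276%, 0.227% and 0.286% in WT 1, 4 and 5, against 0.145%, 0.109% and 0.159% in DKO. In whole glands, fewer cells of a type and less RNA per cell cannot be told apart.

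Egf was the only member called at an adjusted p under 0.05, 1 of the 9 members tested, beside 2.9% of all rows tested (1.88% lower and 1.02% higher). The call was kept with each library left out in turn, with log2 fold changes from -0.59 to -0.83 and adjusted p-values of at most 0.00912. It was lost with edgeR (adjusted p = 0.123) and limma-voom (adjusted p = 0.121), which gave log2 fold changes of -0.69 and -0.70. The libraries did not mark strand, and 2 antisense genes overlap 4.43% and 5.38% of the exon bases of Egf.

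**Figure D2:**
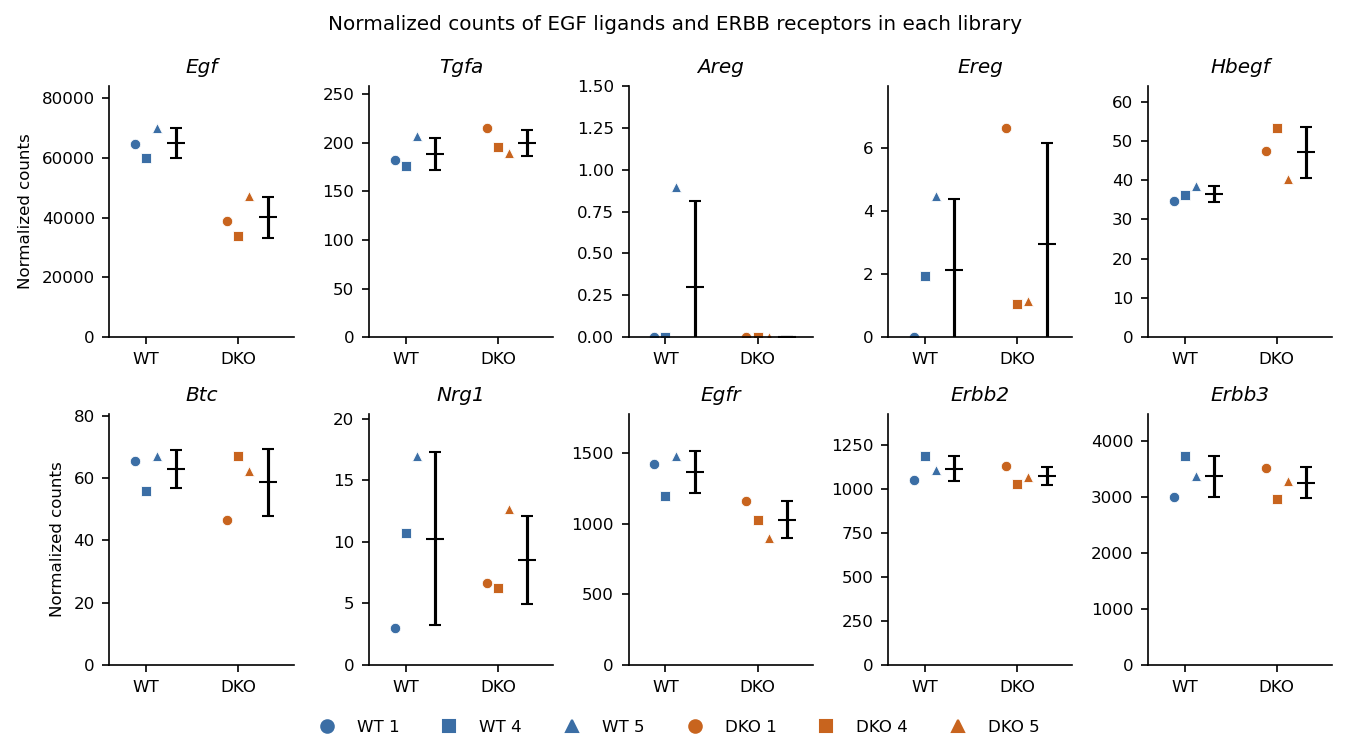
Normalized counts of the 10 members in each library (y axes start at 0 and differ between panels; black bars are mean ± SD of 3 libraries, cut at 0). The groups do not overlap for Egf and Egfr, which are lower in DKO, and for Hbegf, which is higher, and they overlap or lie near 0 for the other 7.

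Egf was set beside the other products of granular ducts. Of 16 fixed genes of that list, 13 were lower at an adjusted p under 0.05 and 0 were higher, with a median log2 fold change of -0.88 against 0.00 for all rows tested. The 13 were the Klk1b kallikrein genes. With edgeR 2 of the 16 were lower at that threshold and with limma-voom 3, Klk1b24 among them in both, and with a library left out 11 to 13. Klk1b24 had 989 ± 35.1 normalized counts in WT and 439 ± 41.1 (SD, n = 3) in DKO (log2 fold change -1.17, DESeq2 adjusted p = 3.00e-19). The Klk1b genes are close copies of each other, so the counts of a single one are uncertain. Klk1, Muc13 and Ren1, named here after their values were seen, did not pass the test. Their log2 fold changes were 0.28, -0.28 and -1.40, so Klk1 went the other way. Ren1 varied widely within both groups. It had 47168, 48304 and 83.3 normalized counts in WT 1, 4 and 5, against 113, 12505 and 23570 in DKO.

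Relative to the mean of the WT libraries, the DKO libraries held 0.618 ± 0.105 of Egf and 0.565 ± 0.0905 of the summed Klk1b genes (SD, n = 3). The log2 ratio of Egf to the summed Klk1b counts was -1.94, -2.03 and -1.86 in WT 1, 4 and 5, against -1.74, -1.88 and -1.81 in DKO. The groups overlapped, and the difference of 0.13 gave p = 0.2 in a two-sided exact permutation test, in which 3 libraries against 3 cannot go below 0.1. Against Klk1b24 alone the difference was 0.47 (exact permutation p = 0.1).

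**Figure D3:**
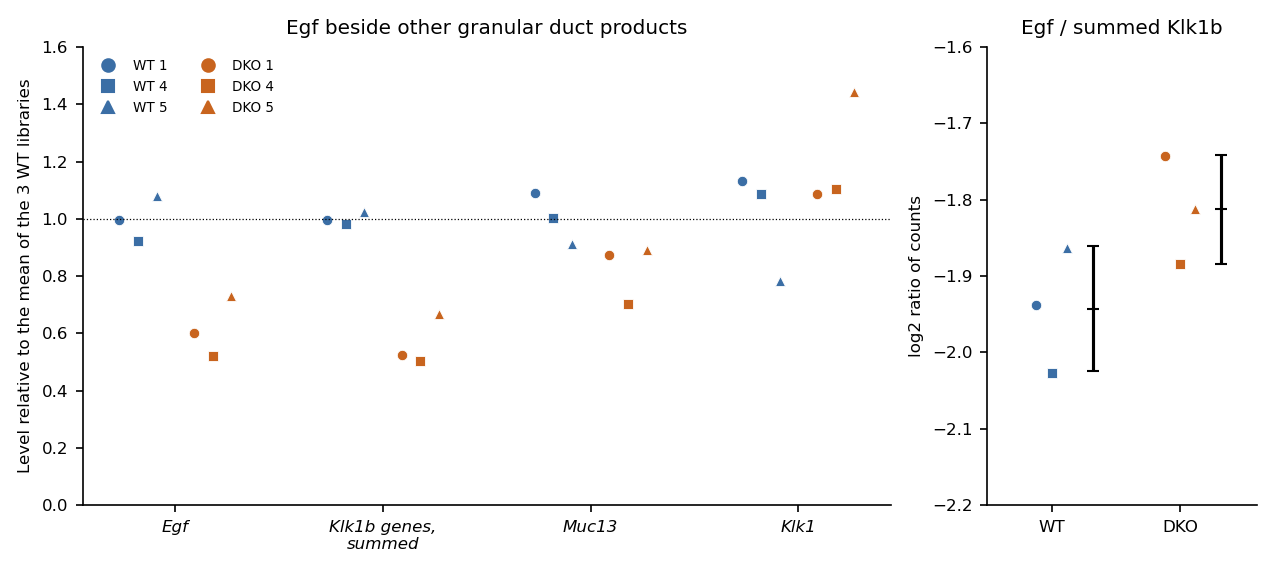
Left, level in each library divided by the mean of the 3 WT libraries (linear axis from 0) for Egf and 3 other granular duct measures. Right, log2 ratio of Egf counts to the summed counts of the 13 Klk1b genes, with mean ± SD in black. The 3 DKO libraries hold 0.522 to 0.731 of the WT mean of Egf and 0.502 to 0.669 of that of the Klk1b genes, and the log2 ratios of the groups overlap.

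Other cell type markers differed between the groups in DESeq2 as well. Myoepithelial markers were lower in 5 of 7 tested genes (summed level 8871 to 9610 normalized counts in WT, 4885 to 6434 in DKO), fibroblast markers in 2 of 5 (8500 to 11697 and 6233 to 8880), T cell markers in 3 of 4 (26.4 to 155 and 4.61 to 8.54), macrophage and dendritic cell markers in 2 of 5 (2547 to 4818 and 1661 to 2060) and B and plasma cell markers in 2 of 6 (7469 to 9908 and 6509 to 8715). Acinar markers were higher in 4 of 10 (8759340 to 10719300 and 11198900 to 13731100). Most of the acinar sum was Spt1, whose groups overlapped and which did not pass (DESeq2 adjusted p = 0.0758). Mucl1, which passed, had means of 132 and 784737 normalized counts in WT and DKO. Both were named after their values were seen. Most of the B and plasma cell sum was Xbp1 (means 6061 in WT and 6779 in DKO), the 1 gene of the 6 with a positive log2 fold change. Ighm, which passed, had 2143, 194 and 1603 normalized counts in WT 1, 4 and 5, against 75.9, 69.0 and 72.6 in DKO. These 2 genes were also named after their values were seen. With edgeR and with limma-voom 2 acinar markers were higher and 0 of the other 5 lists' genes passed. With a library left out, the calls were 4 to 6 for myoepithelial, 0 to 3 for fibroblast, 1 to 4 for T cell, 0 to 4 for macrophage and dendritic cell, 1 to 3 for B and plasma cell and 3 to 7 for acinar markers. None of the 10 other duct, 6 Schwann and nerve, 4 endothelial and 1 tested adipocyte markers passed the test in DESeq2. In these lists 5, 0, 2 and 0 genes had an unadjusted p under 0.05, beside 2267 of all 18606 rows tested. Of the 10 other duct markers, 9 had a negative log2 fold change, with a median of -0.25 against 0.00 for all rows. All 4 endothelial markers had a positive log2 fold change, with a median of 0.28. No gene of these lists was at 0 in all libraries. Their part in the values of Egf and Egfr was not tested.

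The 5 rows whose pattern over the 6 libraries lay closest to that of Egf, among 11488 rows with a mean of at least 50 normalized counts, were RP23-68D4.1, Rnf133, Fmo5, Klk1b1 and Cbx7. Their root mean square distances from Egf in centred log2 values lay between 0.0705 and 0.104. A difference between the groups like that of Egf was built into this choice, as the distance covered the same 6 libraries. The log2 fold changes and adjusted p-values of these rows are therefore only descriptive. Klk1b1 is one of the kallikreins counted above, and it had a log2 fold change of -0.81. Cbx7, which encodes a Polycomb protein, had 523, 528 and 570 normalized counts in WT 1, 4 and 5, against 313, 334 and 408 in DKO (log2 fold change -0.62, DESeq2 adjusted p = 0.00201). That call was lost without WT 5 (adjusted p = 0.0729), with edgeR (0.118) and with limma-voom (0.118). RP23-68D4.1, Rnf133 and Fmo5 had log2 fold changes from -0.65 to -0.70 and did not pass the test.

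The other ligands were counted far less often. Tgfa, which encodes the EGFR ligand transforming growth factor alpha, had 182, 176 and 207 normalized counts in WT 1, 4 and 5, against 215, 195 and 189 in DKO. The groups overlapped, and the fold change of 1.06 had a 95% interval of 0.840 to 1.34 (DESeq2 adjusted p = 0.919). Btc encodes betacellulin, which binds EGFR and ERBB4. It had 65.3, 55.8 and 67.2 normalized counts and then 46.5, 66.9 and 62.3, with a fold change of 0.930 (95% interval 0.626 to 1.38, DESeq2 adjusted p = 0.946).

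Hbegf, which encodes heparin-binding EGF-like growth factor, had 34.6, 36.2 and 38.5 normalized counts in WT 1, 4 and 5, against 47.4, 53.3 and 40.4 in DKO. Every DKO library was above every WT library, by a small margin between DKO 5 and WT 5. Of the 9 members tested, Egf and Egfr did not overlap and were lower and Hbegf did not overlap and was higher, beside 20.3% of all rows tested that did not overlap (10.5% lower and 9.85% higher). The fold change of Hbegf was 1.29 with a 95% interval of 0.822 to 2.03, and it did not pass the test (DESeq2 adjusted p = 0.742).

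Nrg1, Ereg and Areg were at the limit of detection. Nrg1 had 3, 11 and 19 counts in WT 1, 4 and 5, against 7, 6 and 11 in DKO, and its fold change of 0.823 had a 95% interval of 0.282 to 2.41. Ereg, which encodes epiregulin, had 0, 2 and 5 counts and then 7, 1 and 1, or 0.0989 CPM (counts scaled to the library totals) over all libraries (exact Poisson 95% interval 0.0566 to 0.161). Areg, which encodes amphiregulin, had 1 count in WT 5 and 0 in the other 5 libraries. For the 0 counts in DKO the exact Poisson 95% interval reached 3.69 counts, or 0.0441 CPM, and no fold change is given. Such intervals and limits cover counting error only, and a difference in these 3 genes was not detectable at this depth unless it was large.

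**Figure D4:**
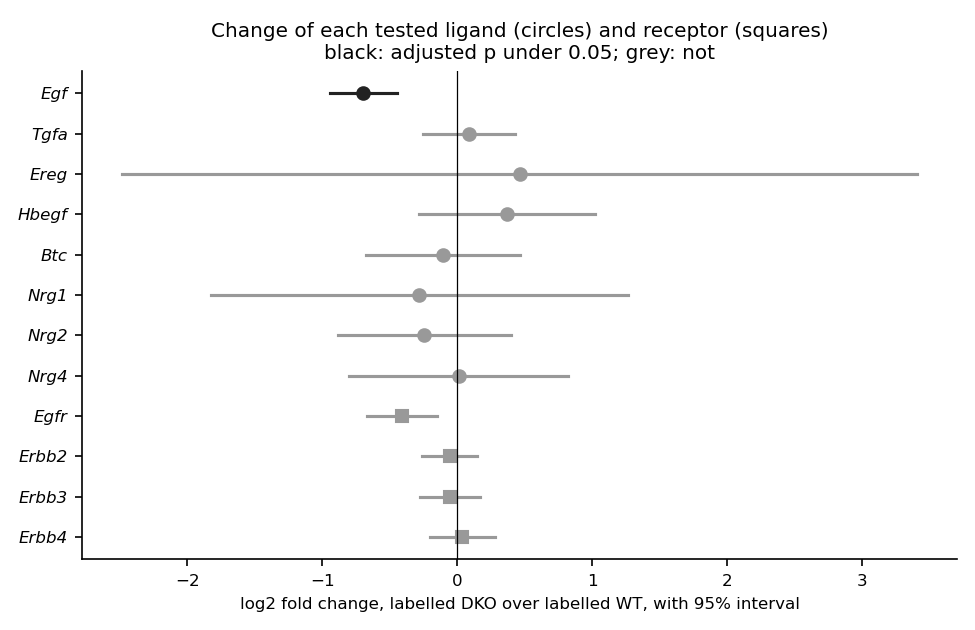
log2 fold change of labelled DKO over labelled WT with its 95% interval for the 9 tested members and for Nrg2, Nrg4 and Erbb4; circles are ligands, squares receptors, and black marks an adjusted p under 0.05. Only the interval of Egf is black, the interval of Egfr (-0.67 to -0.15) also lies below 0, and that of Ereg is the widest.

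The makeup of the ligand pool was compared within each library, as the share of the summed level per kb of the 7 ligands. Egf took 99.1%, 99.1% and 99.1% in WT 1, 4 and 5, against 98.4%, 98.1% and 98.8% in DKO. The groups did not overlap, and the difference of -0.66 percentage points had p = 0.1 in the two-sided exact permutation test. That is the smallest p that 3 libraries against 3 can give. The share falls with the counts of Egf itself, so it is not a result apart from the lower Egf. With longest transcripts the difference was -0.40 and with counts not scaled by length -0.34, both with an exact permutation p of 0.1.

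Among the receptors, Egfr was the member with the largest difference, and it lay just outside the threshold. Egfr encodes the receptor of EGF, TGF-alpha and amphiregulin. It had 1420, 1193 and 1481 normalized counts in WT 1, 4 and 5, against 1157, 1024 and 899 in DKO 1, 4 and 5. Every DKO library was below every WT library, with WT 4 and DKO 1 next to each other. The means were 1365 ± 151 and 1027 ± 129 (SD, n = 3), and the fold change of 0.753 had a 95% interval of 0.629 to 0.901 (log2 fold change -0.41, SE 0.13, DESeq2 unadjusted p = 0.00191, adjusted p = 0.0541).

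The side of the threshold on which Egfr fell depended on the library set and the scaling. It passed without WT 4 (DESeq2 adjusted p = 0.0149), without DKO 1 (0.0136), with total counts as size factors (0.00363) and with at least 10 counts in at least 3 libraries (0.0486). In the other 11 alternatives it did not pass, up to an adjusted p of 0.453 without WT 5, and its log2 fold change was between -0.32 and -0.64 over all 15. Scaling by total counts moved the median log2 fold change of all rows to -0.23. On that scale Egf lay at -0.93 and Egfr at -0.64.

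Erbb2 and Erbb3 showed no difference beyond the spread between libraries. Erbb2, which encodes the ligandless partner of the other receptors, had 1051, 1189 and 1104 normalized counts in WT 1, 4 and 5, against 1127, 1028 and 1065 in DKO. Its fold change was 0.963 with a 95% interval of 0.836 to 1.11 (DESeq2 adjusted p = 0.918). Erbb3, the receptor of neuregulins, had 2998, 3732 and 3361 normalized counts and then 3513, 2958 and 3280. The groups overlapped, and the fold change of 0.966 had a 95% interval of 0.828 to 1.13 (DESeq2 adjusted p = 0.930). These intervals do not reach the fold change measured for Egfr, but the differences between the receptors were not tested on this scale.

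As a share of the summed level per kb of the 3 receptors, Egfr took 15.2%, 11.0% and 14.5% in WT 1, 4 and 5, against 11.3%, 11.6% and 9.58% in DKO. The groups overlapped through WT 4. The shares of the 3 receptors were compared by a two-sided exact permutation test with adjustment over the 3. Egfr differed by -2.75 percentage points, Erbb2 (23.5% to 25.3% over the 6 libraries) by 0.70 and Erbb3 (60.4% to 65.8%) by 2.05, each with an adjusted exact permutation p of 0.3. With counts not scaled by length the differences were -4.28, 1.02 and 3.26 (unadjusted exact permutation p = 0.3, 0.1 and 0.3). Without WT 1 the difference of Erbb3 was 1.01 and without WT 4 it was 3.34, and for Erbb2 it ranged from 0.36 without DKO 4 to 1.04 without DKO 1. Per kb, Erbb3 therefore took most of the receptor level in every library, and Egfr the least. The place of Egfr depended on the length scaling. In unscaled counts Egfr was above Erbb2 in WT 1 (1435 and 1062), WT 4 (1220 and 1215), WT 5 (1653 and 1233) and DKO 1 (1220 and 1188). It was below Erbb2 in DKO 4 (980 and 984) and DKO 5 (780 and 924).

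The rest of the EGF pathway was described with 5 fixed lists of 71 genes, of which 68 were tested. Of these, 2 were lower and 1 was higher at an adjusted p under 0.05 (4.41% beside 2.9% of all rows). The other family members held 5 genes, of which Nrg2, Nrg4 and Erbb4 were tested and 0 passed in DESeq2, with 0 at an unadjusted p under 0.05 and a median log2 fold change of 0.01. Nrg2 had 66.5 ± 18.7 and 56.1 ± 13.3 normalized counts in WT and DKO, Nrg4 28.1 ± 4.25 and 28.5 ± 6.69, and Erbb4 723 ± 72.1 and 744 ± 49.8 (SD, n = 3). Epgn, with 8 counts in all, and Nrg3, with 5, were not tested.

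In the list of ligand shedding and trafficking, 1 of 11 genes was lower and 0 were higher, with a median log2 fold change of -0.10. The gene was Timp3, which encodes an inhibitor of metalloproteases that include ADAM17. Timp3 had 2332, 2129 and 3036 normalized counts in WT 1, 4 and 5, against 1903, 1902 and 1598 in DKO (log2 fold change -0.47, SE 0.14, DESeq2 adjusted p = 0.0332). Its call was kept without WT 4 and lost without WT 1 (adjusted p = 0.144), WT 5 (0.383), DKO 1 (0.0564), DKO 4 (0.0996) or DKO 5 (0.323), and with edgeR (0.203) and limma-voom (0.241); without WT 5 its log2 fold change was -0.31. Adam17 and Adam10, the proteases that release most of these ligands, had log2 fold changes of -0.20 and -0.23 and did not pass (DESeq2 adjusted p = 0.583 and 0.342), and both were named after their values were seen.

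In the list of adaptors and signal relay, 1 of 23 genes was lower and 0 were higher, with a median log2 fold change of 0.00. Pik3r1, which encodes the p85-alpha regulatory subunit of PI3K, had 5773, 5667 and 5858 normalized counts in WT 1, 4 and 5, against 4980, 4793 and 4439 in DKO. The groups were apart (log2 fold change -0.28, SE 0.09, DESeq2 adjusted p = 0.0322). The call was lost without WT 1 (adjusted p = 0.213), WT 4 (0.0625), WT 5 (0.263) or DKO 5 (0.193), and with edgeR (0.225) and limma-voom (0.219).

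In the list of receptor attenuation and feedback, 0 of 19 genes passed in DESeq2, edgeR or limma-voom, and the median log2 fold change was 0.01. In DESeq2 3 of the 19 had an unadjusted p under 0.05, beside 2267 of all 18606 rows tested. The largest differences were those of Dusp4 and Socs3. Dusp4, which encodes a phosphatase of ERK and related kinases, had 75.2, 90.0 and 113 normalized counts in WT 1, 4 and 5, against 262, 706 and 144 in DKO. Every DKO library was above the WT libraries, and DKO 4 was far above the others (95% interval of the log2 fold change 0.68 to 3.32, DESeq2 adjusted p = 0.0692). Dusp4 passed without DKO 4 (log2 fold change 1.13, adjusted p = 0.0481) and without DKO 5 (2.38, adjusted p = 2.42e-07). Socs3 had 36.1 ± 11.4 and 26.3 ± 7.35 normalized counts (SD, n = 3; DESeq2 adjusted p = 0.758).

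In the list of ERK response genes, 1 of 12 tested genes was higher and 0 were lower, with a median log2 fold change of 0.07. Phlda1, an immediate response gene that encodes a protein with a pleckstrin homology-like domain, had 928, 1060 and 1129 normalized counts in WT 1, 4 and 5, against 1317, 1419 and 1472 in DKO (log2 fold change 0.43, SE 0.11, DESeq2 adjusted p = 0.00925). The groups did not overlap. The call was lost without WT 1 (adjusted p = 0.144), DKO 4 (0.0572) or DKO 5 (0.125), with edgeR (0.147) and limma-voom (0.179), and with total counts as size factors, where the log2 fold change was 0.20 (adjusted p = 0.282).

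**Figure D5:**
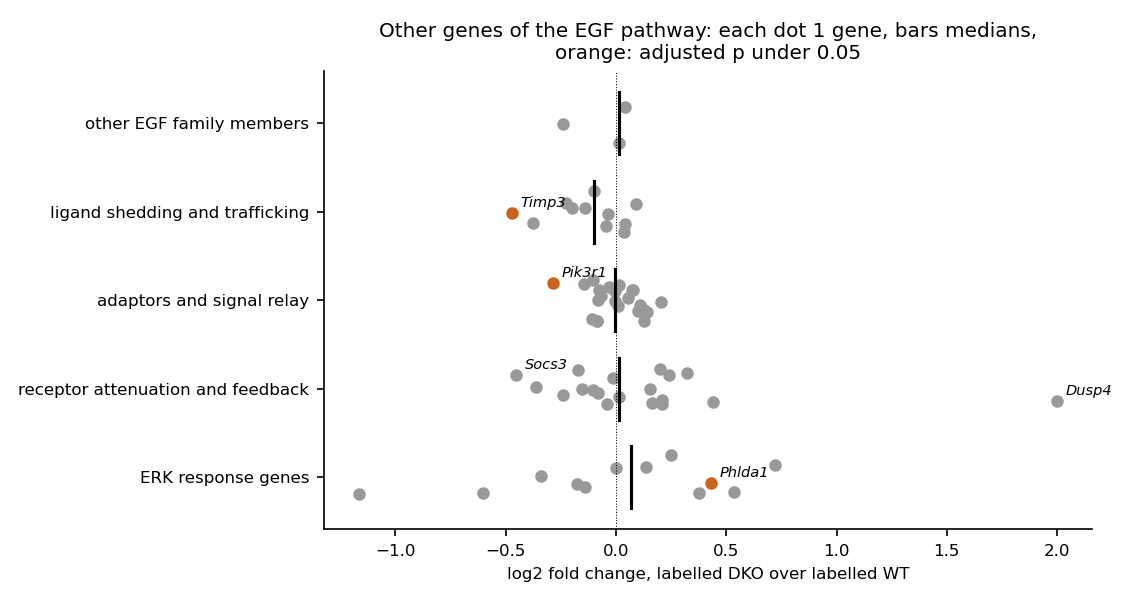
log2 fold change of labelled DKO over labelled WT for the 68 tested genes of 5 lists of the EGF pathway; each dot is 1 gene, black bars are list medians and orange marks an adjusted p under 0.05. The 5 medians lie between -0.10 and 0.07, and 3 genes are orange.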

How the data were processed

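RNA was measured in 6 SMG libraries (unstranded Nextera XT, HiSeq2500). Raw counts by gene symbol were deposited unfiltered (43280 rows) and filtered (17527 rows, same counts), beside a table of CPM values that was not used here. The submitters' processing notes name STAR 2.5.2a and the builds GRCh38, GRCm38 and mm10 without their roles. The counting tool and annotation were not given in the sources used here. Total counts (23674258 to 29611975 per library) set the precision.

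Libraries were grouped by their titles. Rows with at least 10 counts in all (18606) were tested with DESeq2 1.42.0 in R 4.3.3, as the study names it (Wald test, median-of-ratios size factors, default filters, Benjamini-Hochberg adjustment, threshold 0.05). The filters left 2556 rows, Ereg among them, without an adjusted p-value. Alternatives were edgeR 4.0.16, limma-voom (limma 3.58.1), TMM factors, total counts, other row filters, independent filtering off, a replicate block, and each library left out. Shares and ratios were compared by exact permutation tests over libraries. Exon lengths and coordinates came from GENCODE M21 (GRCm38), to which 91.2% of row names matched. Libraries of a group differed by more than sampling noise (chi-square per degree of freedom 16.8 to 43.4).

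The genes named were the members, the targeted genes, Klk1b24, the other EGF family genes, from each pathway list the genes called (with none called, the 2 of largest absolute log2 fold change), and the 5 rows closest to a called member in centred log2(normalized count + 1). The members, the gene lists and this rule were chosen with earlier results of these data known. A further item that the rule covers is not reported here, and counts over its list leave it out.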

Additional observations from a re-analysis of the deposited data

How the results depend on the processing

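Egf was lower in all 15 alternatives and passed in 13. Of the 10 members, 0 passed with edgeR and 0 with limma-voom. In each, 2 members had an unadjusted p under 0.05, beside 2789 of 18606 rows with edgeR and 2609 with limma-voom. With total counts and under the stricter count filter (10 counts or more in 3 libraries or more) 2 passed. Leaving out a library gave 1 to 2. Over all genes, 539 calls became 10 with edgeR, 7 with limma-voom, 1469 with total counts (62 higher and 1407 lower, against 189 and 350), 343 with the replicate block, and 149 to 817 with a library left out. Samples with the same number did not deviate together (correlations -0.13, -0.02 and -0.26). Samples with different numbers had correlations from -0.39 to 0.45. With 3 libraries in each group this check cannot exclude a pairing by number, and the main test used none. With the replicate block Egf had a log2 fold change of -0.71 and Egfr an adjusted p of 0.146. The ligand share and the ratios kept their direction throughout, and under the block their smallest possible p is 0.25.

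In the pathway lists, edgeR and limma-voom called 0 genes each of shedding, relay and ERK response. Total counts called 2, 3, 4 and 0 genes of shedding, relay, attenuation and ERK response, and their medians moved to -0.33, -0.23, -0.21 and -0.17, that of the other family members to -0.23. The replicate block called 0 of shedding and 0 of relay. With a library left out, shedding gave 0 to 1 calls (medians -0.18 to -0.0057), relay 0 to 1 (-0.063 to 0.040), attenuation 0 to 2 (-0.030 to 0.089) and ERK response 0 to 1 (0.056 to 0.29). The ERK response median was 0.25 under the stricter count filter, which tested 9 genes of that list instead of 12. Egr2, Egr3 and Etv4 had too few counts for it. Causes of the other shifts were not tested. Among the uncalled members the sign turned in at least 1 alternative for Tgfa, Ereg, Btc, Nrg1 and Erbb3, and Tgfa was at -0.15 with total counts. Depth limits what can be said of Nrg1, Ereg and Areg.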

Other observations

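The library labelled DKO 4 was the highest of the 6 libraries for 21 of the 68 tested pathway genes, and each other library was the highest for 5 to 14. Among the 31 tested genes of the lists of receptor attenuation and feedback and of ERK response genes it was the highest for 11, and each other library for 2 to 6, so the shares of the 68 and of the 31 were close. Examples beside Dusp4, named after their values were seen, are the transcription factor gene Etv5, the phosphatase gene Dusp6 and the cyclin gene Ccnd1. Etv5 had 102, 96.8 and 119 normalized counts in WT 1, 4 and 5 against 124, 287 and 113 in DKO 1, 4 and 5 (DESeq2 adjusted p = 0.251). Dusp6 had 1280, 894 and 1044 against 1216, 1685 and 1468 (DESeq2 adjusted p = 0.0972). Ccnd1 had 1291, 953 and 978 against 1640, 2140 and 889 (DESeq2 adjusted p = 0.626). In each, DKO 4 was above every other library and no test of this pattern was made.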
